A study of Mus musculus with 4 samples.

Results

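Zeb1 peaks were examined at the genes of the mouse Notch receptors (Notch1, Notch2, Notch3 and Notch4), of their ligands (Dll1, Dll3, Dll4, Jag1 and Jag2) and of Hes1, a target of the pathway. A peak belonged to a gene when the deposited list of Zeb1 peaks named that gene for it, and 15 of the 17435 peaks did so. All 10 genes had at least 1 such peak, as did 51.1% of the 21887 protein-coding genes of the reference, and the list names 12271 gene symbols in all. The ChIP-seq was made in D3 mESC, a mouse embryonic stem cell line, cultured without feeder cells in GS, an N2B27 medium with LIF at 20 ng per mL and 2 kinase inhibitors, PD0325901 against MEK at 1 µM and CHIR99021 against GSK-3 at 3 µM. Chromatin was fixed with 1% formaldehyde and sheared to about 200 bp. The labels give 3 Zeb1 ChIP libraries, each made with 8 µg of an anti-Zeb1 antibody, and 1 Input library without immunoprecipitation, all of them from cells in GS, so that there was no second condition. The labels do not say whether the 3 ChIP libraries came from separate cultures.

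For each peak the list gives the mean number of treatment (ChIP) reads, the mean number of Input reads and the enrichment, which is the authors' mean ratio of ChIP to Input after scaling to mapped reads. No value of a single library was among the files used here. The spread between libraries is therefore unknown, no SD accompanies any value, no test between genes was made, and no neighbours in an order of genes can be said to differ. The authors drew 30 M reads from each sample, and the number left in each library after alignment and removal of duplicates was not used here. RNA was not analysed here, so the embryonic stem cell identity could not be checked against marker genes.

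Notch signalling passes between touching cells. A ligand of the Delta-like (Dll) or Jagged (Jag) family on 1 cell binds a Notch receptor on its neighbour, proteases cut the receptor, and its intracellular domain enters the nucleus and joins the DNA-binding protein Rbpj to activate genes such as Hes1, a basic helix-loop-helix repressor. In embryonic stem cells and early embryos the pathway takes part in lineage choices, among them neural and mesodermal ones. Zeb1 is a zinc-finger repressor, best known from epithelial to mesenchymal transition, that binds E-box DNA with the core CACCTG.

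The DNA under the peaks was read first for that sequence. The Zeb1 motif was spelled as CNCACCTG, CNTACCTG, TNCACCTG or TNTACCTG on both strands, and CNCACCTG and TNCACCTG contain the core CACCTG, so that matches of the motif and of the core overlap. At least 1 match lay in 13 of the 15 peaks, and 76.8% of all peaks in the list had one. The match nearest to the centre of each of the 13 peaks is given here with 11 bases on either side, since these are the stretches that the results on the motif refer to. The sequences are those of the RefSeq assembly GRCm38.p6 (mm10), 5′ to 3′ on the strand that carries the match, with the 8 bases of the motif in capitals.
Notch1 peak 1 (chr2:26502172-26502201, minus strand, intron 1 of 33): gagtggggcggTACACCTGccacctagcca
Notch1 peak 2 (chr2:26487866-26487895, minus strand, intron 2 of 33): ccctccacagaTGCACCTGctccctgctgc
Notch3 peak 1 (chr17:32166660-32166689, plus strand, intron 1 of 32): gtccctgatccCTCACCTGcagcccccagc
Notch3 peak 2 (chr17:32162699-32162728, plus strand, intron 2 of 32): tgagccggtgaTTCACCTGtcgaggggcgg
Notch3 peak 3 (chr17:32143579-32143608, minus strand, coding exon 24 of 33): gggggctcatgCCTACCTGtacagagtgtc
Notch4 (chr17:34572033-34572062, plus strand, intron 9 of 29): ctatctgcaagTACACCTGcgcgccagaag
Dll1 (chr17:15375352-15375381, minus strand, 5′ UTR in exon 1 of 11): ggccctgatagCACACCTGgagccgagaga
Dll3 peak 1 (chr7:28301997-28302026, minus strand, upstream of the TSS): atagagaggaaTGCACCTGtatttccgttc
Dll3 peak 2 (chr7:28298558-28298587, minus strand, coding exon 5 of 9): actggatgcctTTTACCTGggcctggacct
Dll4 peak 1 (chr2:119325422-119325451, minus strand, upstream of the TSS): cccgtaggcggTGCACCTGatccaggcatt
Dll4 peak 2 (chr2:119322283-119322312, minus strand, upstream of the TSS): ctgccgctgctCGCACCTGccggtcaataa
Jag1 (chr2:137117055-137117084, minus strand, upstream of the TSS): accgcggcgccTACACCTGgggcttgcaag
Jag2 (chr12:112928027-112928056, plus strand, intron 2 of 25): ctaactagcttCACACCTGcagacaatcag

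Where a gene had several peaks, they were numbered by distance from the transcription start site (TSS), nearest first. The Notch2 and Hes1 peaks had no match. The shown match of Dll3 peak 1 lay 38 bp from the peak centre and that of Notch1 peak 1 863 bp from it, the shortest and the longest of these distances. In all, the 15 peaks held 45 matches, of which 18 were spelled CNCACCTG, 15 TNCACCTG, 7 CNTACCTG and 5 TNTACCTG, and 8 of the 45 lay within 500 bp of the TSS. The share of all matches in the list that lie so close to a TSS was not computed.

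The 250 bases before the TSS were taken from the RefSeq promoter table, which holds 10 such windows of 9 of the genes. Dll1 has 2 of them and Hes1 has no entry. The windows of Dll3, of the upstream TSS of Dll1 and of Notch2 are shown, because the first holds the Zeb1 motif, the second holds only its core and the third holds neither. Letters of the motif or of the core are in capitals, on whichever strand they were read, and each window is written on the strand of its gene.
Dll3 (chr7:28301786-28302035, minus strand): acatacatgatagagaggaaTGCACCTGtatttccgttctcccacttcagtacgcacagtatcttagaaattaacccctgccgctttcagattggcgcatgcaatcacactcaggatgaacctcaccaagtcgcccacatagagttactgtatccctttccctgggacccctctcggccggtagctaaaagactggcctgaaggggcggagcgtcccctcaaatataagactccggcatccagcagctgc
Dll1 (chr17:15376933-15377182, minus strand): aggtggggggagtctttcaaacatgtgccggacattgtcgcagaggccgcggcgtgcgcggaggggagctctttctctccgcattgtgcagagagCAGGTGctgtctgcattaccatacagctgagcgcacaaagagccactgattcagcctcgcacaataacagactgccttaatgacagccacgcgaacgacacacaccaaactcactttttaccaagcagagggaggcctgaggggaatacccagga
Notch2 (chr3:98013288-98013537, plus strand): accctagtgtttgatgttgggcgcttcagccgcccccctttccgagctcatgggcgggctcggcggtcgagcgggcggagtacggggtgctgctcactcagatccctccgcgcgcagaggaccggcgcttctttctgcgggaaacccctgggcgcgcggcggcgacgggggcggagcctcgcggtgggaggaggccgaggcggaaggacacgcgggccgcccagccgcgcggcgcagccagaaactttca

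The Zeb1 motif of Dll3 started 230 bp before the TSS, and it was the only match in the 10 windows. In the whole table of 32851 windows, 14.3% held the Zeb1 motif and 17.2% the core CACCTG. All of the windows except that of Notch4 lay wholly inside a peak. The lack of a match says only that these letters are not in these 250 bases.

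Of the peaks assigned to the 10 genes, 9 of 15 covered a TSS. The share of the list's peaks that cover a TSS was not computed. Within 1 kb of a TSS were 8 of the 15 peaks and 52.2% of the list. A peak covered the TSS of the transcript that the list names in 9 of the 10 genes, all but Notch4, against 47.8% of protein-coding genes with a curated RefSeq transcript. By the distance that the list gives for the peak centre, the same 9 genes had a peak within 5 kb of the TSS, where 43.2% of protein-coding genes had one. More than 1 peak was assigned to Notch1, Notch3, Dll3 and Dll4, 4 of the 10, where 13.5% of protein-coding genes had at least 2. Of the 15 peaks, 12 were within 5 kb of their TSS. In the whole list 10697 peaks, or 61.4%, lay that close. The 3 assigned peaks beyond 5 kb were all in receptor genes. Receptor genes span 24.3 to 137 kb, and ligand genes 8.23 to 35.1 kb. Peaks inside a member that the list assigns to a neighbour, as in the ligand gene Jag2, are not counted here.

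**Figure D1:**
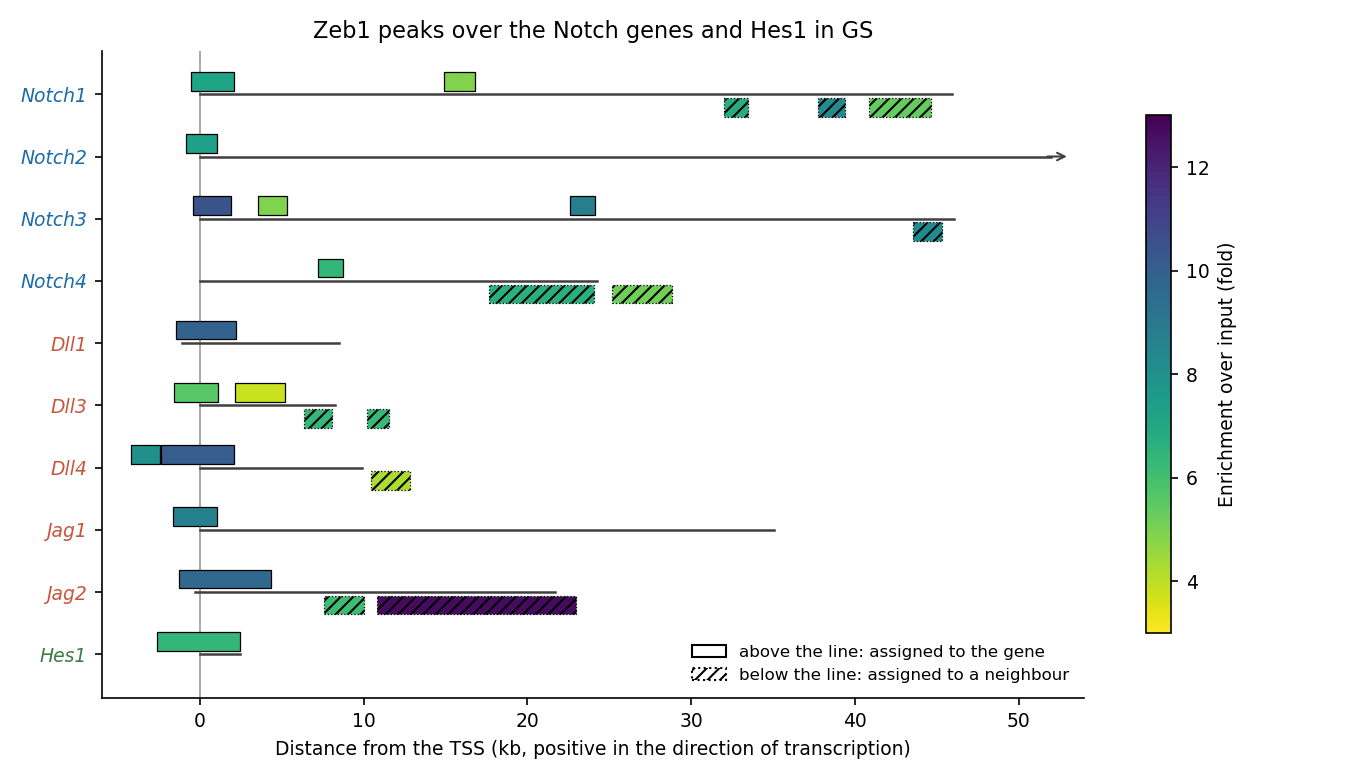
Each line is a gene from its TSS (0) in the direction of transcription in kb, with gene names in blue for receptors, red for ligands and green for Hes1, and each box is a Zeb1 peak coloured by its enrichment over Input. Boxes above the line are the 15 peaks assigned to the gene, of which 9 cover the TSS, hatched boxes below it are the 11 peaks that the list assigns to a neighbour, and the arrow marks that Notch2 runs on past the axis.

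Among the receptors, Notch3, known for its role in vascular smooth muscle, had the most assigned peaks and the highest enrichment. Its peak over the TSS (chr17:32165001-32167300) had 52 treatment reads against 10.9 from the Input, at an enrichment of 10.5, higher than in 87.5% of all peaks. It reached from 410 bp upstream of the TSS through the 5′ UTR and first coding exon into the first intron. Notch3 peak 2 (chr17:32161551-32163350), wholly in intron 2, had 49.5 treatment and 19.5 Input reads, with an enrichment of 4.95. Notch3 peak 3 (chr17:32142751-32144300) was centred in coding exon 24 of 33, 23365 bp from the TSS in the reference, with 54.3 treatment reads against 13.33 from the Input, at an enrichment of 8.73. The 3 peaks differed little in treatment reads. Their enrichment, a ratio to Input, was higher where Input reads were lower, and Input reads were lowest over the TSS. The list places each of them 38 bp closer to the TSS than the reference did, the only such differences among the 15 peaks (the other 12 agreed within 2 bp).

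Notch1, a receptor with roles in somite formation and in blood stem cells, had a peak over its TSS (chr2:26501751-26504350) with 59.2 treatment and 17.1 Input reads, with an enrichment of 7.16. The Notch1 peak in intron 2 (chr2:26487001-26488950), 15847 bp from the TSS, had 41.5 treatment reads against 16.5 from the Input, at an enrichment of 4.9. The TSS peak was thus the higher of the pair, on treatment reads and on enrichment. It contained 1 Zeb1 match, and the intronic peak contained 5. The ratio of observed to expected CpG was 0.654 in the TSS peak and 0.195 in the intronic peak, the latter lower than in all but 5.59% of the list. The TSS peak also overlapped Gm35978, a lncRNA that lies next to Notch1.

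Notch2, which is needed for marginal zone B cells among other tissues, is the longest of the genes at 137 kb and had 1 peak, over its TSS (chr3:98012701-98014550). The Notch2 peak had 58.6 treatment and 16.6 Input reads, with an enrichment of 7.37, close to those of the Notch1 peak at the TSS. Its centre lay in the 5′ UTR, 87 bp from the TSS, the shortest distance among the 15 peaks. It held no Zeb1 match, as shown above for the promoter, and no CACCTG. Of peaks within 10% of its length, 75.9% held a Zeb1 match, with a median of 1.

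Notch4, a receptor mainly of endothelial cells, was the gene without a peak at the TSS. Its assigned peak (chr17:34571501-34573050) was centred in intron 9 of 29, 7980 bp downstream of the TSS, with 23 treatment reads against 7 from the Input, at an enrichment of 6.4. Only 1.97% of the peaks in the list had fewer treatment reads, and the authors' minimum was 20. The enrichment was near the middle of the list all the same, with 48.2% of peaks lower, as the Input reads were low too. The peak held 3 Zeb1 matches, where peaks of like length had a median of 1.

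Among the ligands, Dll1, which is expressed in the presomitic mesoderm and in neural progenitors, had the most treatment reads of the 15 peaks. Its peak (chr17:15373651-15377300) had 129 treatment reads, more than 97.2% of the list, 28.6 Input reads and an enrichment of 9.84. Per kb of peak, treatment reads were 35.3, and 86.4% of the list was lower. The peak covered both curated TSSs of Dll1, and 583 bp of it lay in the 5′ UTR and 453 bp in coding exons of the transcript that the list names. It held 6 Zeb1 matches, against a median of 3 in peaks of like length.

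Dll4, a ligand of arterial endothelium, had 2 adjoining peaks separated by 50 bp. The Dll4 peak over the TSS (chr2:119323401-119327850) had 99.3 treatment and 19.2 Input reads, with an enrichment of 10.1. The Dll4 peak upstream of it (chr2:119321551-119323350), centred 3334 bp before the TSS, had 84.4 treatment reads against 22.1 from the Input, at an enrichment of 8.03. The upstream peak was the shorter and the denser, with 46.9 treatment reads per kb, more than 97.2% of the list, against 22.3 in the peak over the TSS. Input reads per kb moved the same way, 12.3 upstream and 4.32 over the TSS. The TSS peak had the most Zeb1 matches of the 15, 9 against a median of 4 in peaks of like length, and the upstream peak had 1. Both peaks overlapped Gm14207, a lncRNA at chr2:119321199-119326197 that spans the start of Dll4.

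Jag1, a ligand with roles in heart, liver and inner ear, and Jag2, a ligand with roles in limb and palate, each had 1 assigned peak, over the TSS. The Jag1 peak (chr2:137115501-137118150) had 90.9 treatment and 20.9 Input reads, with an enrichment of 8.63. The Jag2 peak (chr12:112925151-112930800) had 86.4 treatment reads against 17.9 from the Input, at an enrichment of 9.66. In treatment reads, 90.5% of peaks were lower than that of Jag1 and 89.0% were lower than that of Jag2. They parted on density. The Jag1 peak, 2650 bp long, had 34.3 treatment reads per kb, and the Jag2 peak, 5650 bp long, had 15.3, with only 6.56% of the list lower. The GC content of the Jag2 peak was 62.7%, the highest of the 15, and its 250-base promoter window had 87.2% GC against a median of 52.4% over all windows. Input reads per kb in the Jag2 peak were 3.16, the lowest of the 15, and the part of base composition in the read counts was not tested.

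Dll3, a divergent ligand that does not activate receptors on neighbouring cells, had the lowest enrichments of the ligands. Its peak over the TSS (chr7:28300701-28303400) had 44.5 treatment and 15 Input reads, with an enrichment of 5.6, and its second peak (chr7:28296601-28299650), centred in intron 5 of 8, had 49.5 treatment reads against 24 from the Input, at an enrichment of 3.8. The second was the lowest enrichment of the 15 peaks, with 10.8% of the list lower. The list places the centre of that peak in a B4A SINE repeat, the only one of the 15 in a repeat. Dll3 was at the same time the gene with the Zeb1 motif closest to a peak centre and the only one with the motif in its promoter window.

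Hes1, the repressor that Notch activates in many tissues, lay wholly under 1 peak of 5100 bp (chr16:30062701-30067800), which ran from 2656 bp upstream of the TSS to 4 bp past the end of the 2440 bp gene. The Hes1 peak had 108 treatment reads, more than 94.6% of the list, and 30 Input reads, more than 92.0% of the list. Its enrichment was 6.38, with 48.0% of the list lower, so that it stood high on reads and in the middle on enrichment. Per kb it had 21.2 treatment reads and 5.88 Input reads. The deposited enrichment of the Hes1 peak was 1.77 times its ratio of treatment to Input reads, where the list had a median factor of 2.07 and quartiles of 1.97 and 2.18. Only 0.602% of peaks had a lower factor, and the cause was not tested. The peak held no Zeb1 match and 2 CACCTG cores, where 97.0% of the 304 peaks within 10% of its length held a Zeb1 match, with a median of 5.

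**Figure D2:**
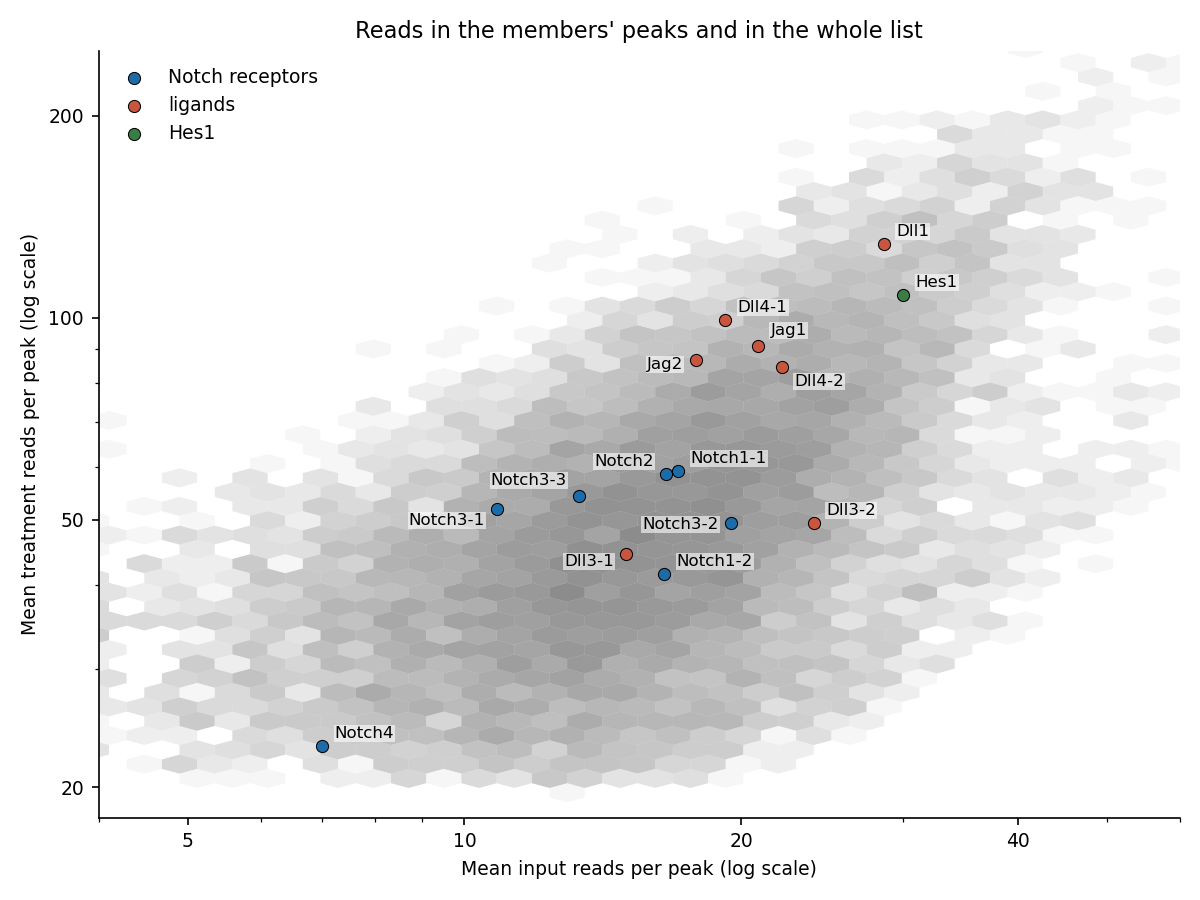
Mean treatment reads per peak (vertical, log scale) are plotted against mean Input reads per peak (horizontal, log scale) for the 15 peaks, numbered within a gene by distance from the TSS, over the density of the list (grey hexagons, darker where more peaks lie, cut to the range where most peaks fall). The Dll1 peak at 129 and the Hes1 peak at 108 treatment reads lie in the upper part of the cloud and the Notch4 peak at 23 at its lower edge.

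Ordered by the highest enrichment of an assigned peak, the genes ran from Notch3 (10.5), Dll4 (10.1), Dll1 (9.84), Jag2 (9.66) and Jag1 (8.63) to Notch2 (7.37), Notch1 (7.16), Notch4 (6.4), Hes1 (6.38) and Dll3 (5.6). All these values lay well below the highest of the list, 81.9. The 9 peaks over a TSS had a median enrichment of 8.63, with a median of 7.37 for the 3 receptors and 9.66 for the 5 ligands. Ligand peaks over a TSS were also longer, with a median of 3650 bp against 2300 bp for receptors, and had more treatment reads, with a median of 90.9 against 58.6. Per kb the medians were alike, 22.3 and 22.8 treatment reads. The 2 groups overlapped in enrichment, since Dll3 was below every receptor peak at a TSS and Notch3 was above every ligand. They overlapped in treatment reads too, since the Dll3 peak, at 44.5, was below every receptor peak at a TSS.

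Over all 15 peaks the median enrichment was 7.37, against 6.5 in the list, and 9 of the 15 lay above the list's median. Treatment reads had a median of 58.6 against 47.4, with 12 of 15 above. Length had a median of 2600 bp against 1850 bp, with 10 of 15 above. Treatment reads per kb had a median of 22.6 against 25.1, with 6 of 15 above. The members' peaks were thus longer and held more reads than those of the list, and were not denser. GC content had a median of 57.7% against 55.5%, with 11 of 15 above. Peaks within 5 kb of a TSS in the list were also longer and richer in GC than those beyond it, with medians of 1950 bp and 56.8% against 1650 bp and 52.7%. The list places 4 of the 15 centres in a CpG island, where it does so for 14.0% of all its peaks.

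**Figure D3:**
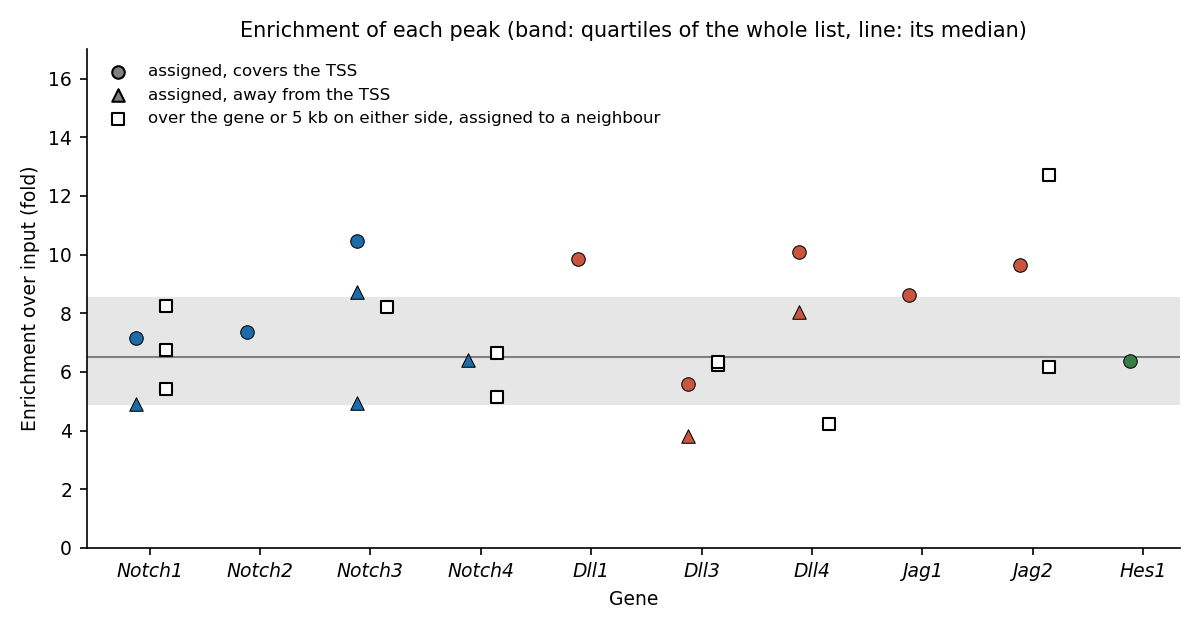
Enrichment over Input (fold) of each peak is shown by gene, with circles for assigned peaks over the TSS, triangles for assigned peaks elsewhere and open squares for peaks assigned to a neighbour, and the grey band marks the quartiles of the list, 4.91 and 8.53, around its median of 6.5. The assigned peaks run from 3.8 at Dll3 to 10.5 at Notch3, and the square at 12.7 is the long peak over Jag2.

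Read by position alone, the loci held more peaks than the list assigns to them. A peak overlapped each of the 10 genes or the 5 kb on either side, as was the case for 57.1% of protein-coding genes. In all 26 peaks lay there, of which 11, at 6 of the genes, are assigned to a neighbour. The share of such peaks over all protein-coding genes was not computed, so whether these counts are unusual is not known. Of these 11, 8 overlapped the member gene itself and 3 lay past its 3′ end. Among these neighbours were the miRNA genes Mir6996, inside Notch1, and Mir6941, inside Jag2.

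The most prominent of them was at Jag2. A peak of 12200 bp (chr12:112906501-112918700), assigned to Mir6941, covered 10898 bp of Jag2 up to and past its 3′ end, with 261 treatment and 36.3 Input reads, with an enrichment of 12.7. In the list of 17435 it had rank 6 by length, rank 23 by treatment reads and rank 1026 by enrichment. It had 21.4 treatment reads per kb, with 30.6% of the list lower, and 19 Zeb1 matches. Another peak assigned to Mir6941 (chr12:112919451-112921950) had 59 treatment reads against 18.5 from the Input, at an enrichment of 6.15. With the peak over the TSS, these peaks covered 82.1% of Jag2. The median over the 1400 protein-coding genes that had a peak and a span within 20% of that of Jag2 was 6.20%, with an upper quartile of 10.5%.

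Notch1 had 3 further peaks in its 3′ part that are assigned to Mir6996. They lay at chr2:26459151-26462950 with 78.5 treatment and 24.5 Input reads, with an enrichment of 5.4, at chr2:26464401-26466100 with 37.4, 9.29 and 8.26, and at chr2:26470351-26471800 with 31.5, 9 and 6.75, in the same order. With them 5 peaks lay over Notch1, where protein-coding genes of like span had a median of 1 with their flanks. The share of the gene under peaks was 23.9%, against a median of 2.95% in genes of like span with a peak.

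The 3′ end of Notch3 held a peak assigned to Pdxk-ps (chr17:32121551-32123350), centred in the last coding exon, 31027 bp from the TSS of that pseudogene, with 60.2 treatment reads against 15.2 from the Input, at an enrichment of 8.2. At Notch4 a peak assigned to Gpsm3, a regulator of G protein signalling, covered 6400 bp of the 3′ part of the gene (chr17:34581951-34588350) with 115.5 treatment and 30.9 Input reads, with an enrichment of 6.63. That peak had 5.02 times the treatment reads of the peak assigned to Notch4 over a region 4.13 times as long. A peak assigned to Pbx2, a homeodomain gene, followed 908 bp past the end of Notch4 with an enrichment of 5.15. At Dll3 the 2 peaks assigned to BC089491 had enrichments of 6.34 inside the gene and 6.25 at 1955 bp past its end, and 71.5% of Dll3 lay under peaks against a median of 18.3% in genes of like span with a peak. At Dll4 a peak assigned to Gm14207 lay 535 bp past the 3′ end, 11203 bp from the TSS of that lncRNA, with an enrichment of 4.23.

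Notch2, Dll1, Jag1 and Hes1 had no such further peak, and the peak at their TSS was the only one within 50 kb of the gene. Of the 12505 protein-coding genes with a peak over the gene or 5 kb on either side, 21.8% had only 1 within 50 kb, and the median was 3. Peaks covered 0.740% of Notch2 and 2.91% of Jag1, below the medians of 1.29% and 3.86% in genes of like span with a peak. They covered 34.3% of Dll1 and all of Hes1, above the medians of 16.6% and 65.6%. The genes thus ranged from those with a peak at the TSS alone, the longest receptor gene among them, to Jag2, Notch1, Notch3 and Dll3 with 3 or more peaks over the gene.

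Zeb1 matches were about as dense in the members' peaks as in the list, 1.06 and 0.889 per kb, and CACCTG had 1.15 and 1.19 per kb. The numbers of matches differed between peaks of 1 gene. In Notch1 and Notch3 the peak over the TSS had 1 match each, and the peaks further inside had 2 to 5. In Dll4 the peak over the TSS had 9 and the upstream peak 1. Restricted to the 200 bp at the peak centre, 4 of the 15 peaks had a match, where 16.7% of the list did.

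The core of the Rbpj site, spelled TGGGAA on both strands, lay in 14 of the 15 peaks, all but Notch3 peak 3, and in 82.9% of the list. It occurred 61 times, or 1.43 per kb, against 0.941 per kb in the list. The Jag2 peak held 12, against a median of 5 in peaks of like length, the intronic Notch1 peak 7 against 2, and the Hes1 peak 8 against 5. Below their medians were Notch2, with 1 against 2, and Notch3 peak 3, with 0 against 1. Notch1 peak 1, Notch3 peak 2, Dll3 peak 1 and Dll4 peak 1 equalled theirs, and the remaining peaks were above. In Hes1 a pair of TGGGAA matches in the same orientation lay 94 and 80 bp upstream of the TSS (chr16:30065260-30065265 and chr16:30065274-30065279), close to the centre of the peak. None of the 10 promoter windows, which do not include Hes1, held TGGGAA, where 21.6% of all windows did. A match of 6 bases is a description of the sequence, and no binding of Rbpj was measured here.

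**Figure D4:**
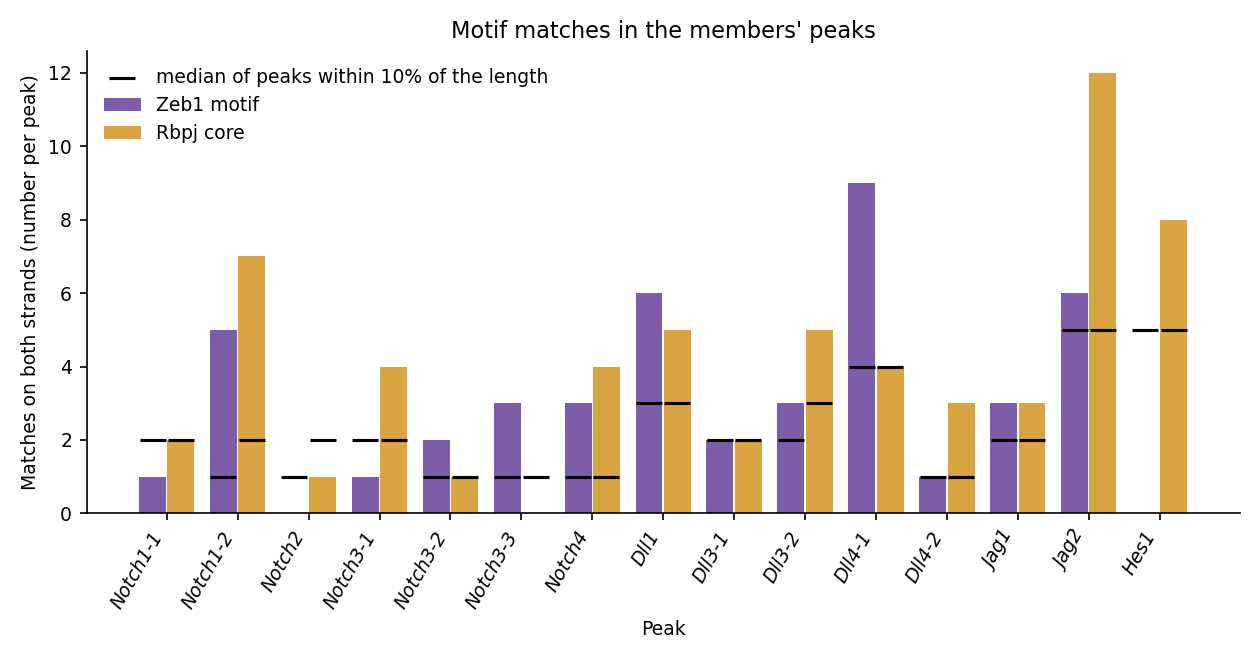
Bars give the number of matches per peak on both strands, purple for the Zeb1 motif and ochre for the Rbpj core, for the 15 peaks, numbered within a gene by distance from the TSS. Black marks are the medians of peaks in the list within 10% of the same length, and the Hes1 and Notch2 peaks have no purple bar while Dll4 peak 1 reaches 9 and Jag2 reaches 12 of the Rbpj core.

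The other genes of the pathway were taken from a list of 44 genes with known parts in Notch signalling. Of these, 32 had an assigned peak and 29 had one within 5 kb of the TSS, or 72.7% and 65.9%, above the 51.1% and 43.2% of protein-coding genes and below the members. The highest peak within 5 kb had a median enrichment of 7.34 in these 29 genes, 8.63 in the 9 members and 6.84 in the 9972 genes of the whole list with such a peak. In 22 of the 29 that peak held a Zeb1 match, a share close to the 76.8% of the list.

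Receptor processing and ligand uptake had 13 of 20 genes with a peak within 5 kb. They included Mib1, the ubiquitin ligase that drives ligand endocytosis, with an enrichment of 15.9 on 52.9 treatment and 7.57 Input reads, and Dtx1, a Deltex regulator of the receptor, with 15.2 on 150.1 treatment and 22.4 Input reads. These were the highest of the 44 within 5 kb, and both were above Notch3. Of the sugar transferases that modify the receptors, 3 of 5 had such a peak, with enrichments from 3.9 to 8.73, and Lfng, the Lunatic fringe gene, had a further peak beyond 5 kb with 14.75. The nuclear complex and its corepressors had 7 of 10. Rbpj, the DNA-binding partner of the receptor's intracellular domain, had 121.6 treatment reads against 18.8 from the Input, at an enrichment of 13.1 in a peak 196 bp upstream of its TSS, the third highest within 5 kb. Of the other Hes and Hey targets with Nrarp, 4 of 6 had such a peak and all 6 had an assigned peak at some distance, and of the non-canonical ligands 2 of 3 did within 5 kb.

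The 12 genes without an assigned peak were Ncstn, Aph1a and Psenen, all subunits of the gamma-secretase that cuts the receptor, the ubiquitin ligase Itch, Dtx2 and Dtx3 of the Deltex family, Rfng and Pofut1, which add sugars to the receptor, the coactivator Maml2, Snw1 and Cir1, which work with Rbpj, and the ligand Dner. By position, 6 of the 12 had a peak over the gene or 5 kb on either side that is assigned to a neighbour. Among them was Rfng, where a peak assigned to Gps1 had an enrichment of 11.6. The share over all protein-coding genes without an assigned peak was not computed.

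**Figure D5:**
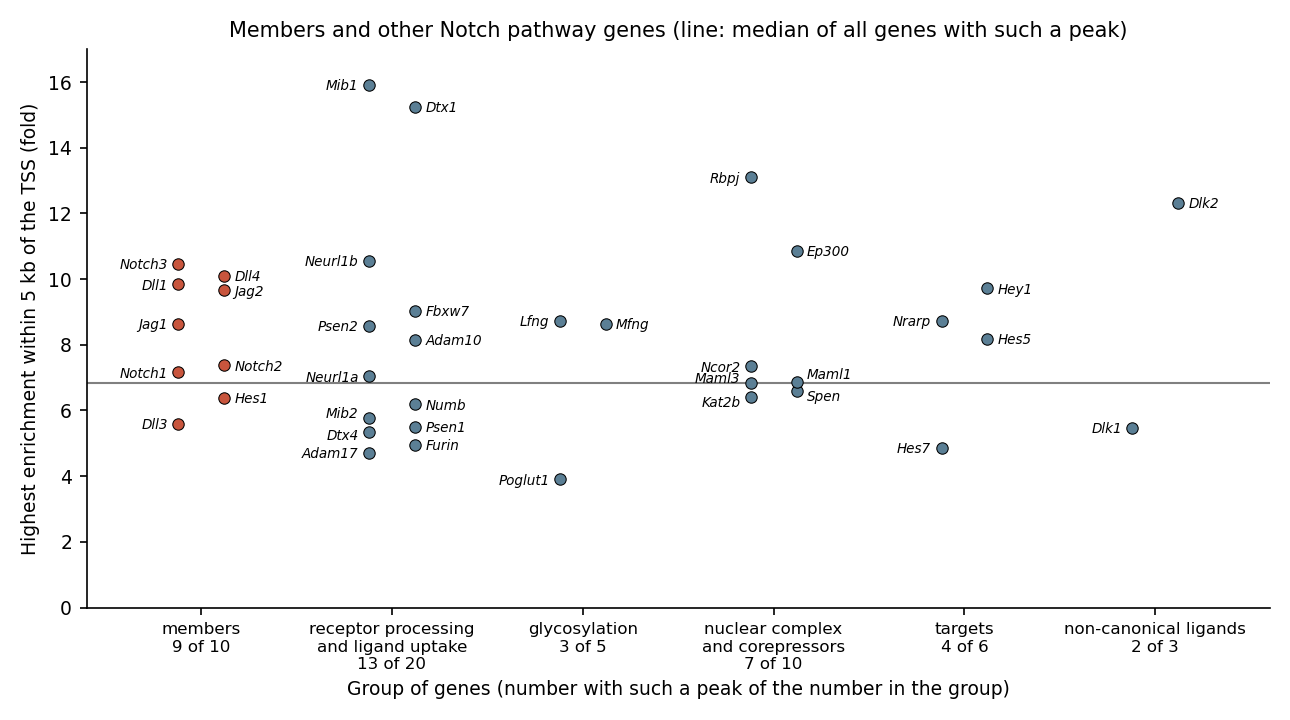
Points give the highest enrichment over Input (fold) of a peak within 5 kb of the TSS for each gene that had one, for the members (red) and for 5 groups of other Notch pathway genes (blue), with the number of such genes under each group. The members lie between 5.6 and 10.5 around the line at 6.84, the median of all genes with such a peak, and Mib1, Dtx1 and Rbpj lie highest.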

How the data were processed

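The authors trimmed the Ion Torrent reads with Reaper, drew the same number of reads from each sample at random, aligned them to mm10 with STAR 2.4.2a, removed duplicates with Picard 1.136 and called peaks for each of the 3 Zeb1 ChIP libraries against the Input with PeakRanger. Peaks passing 20 treatment reads and an enrichment of 2 were unified where at least 2 libraries had them, and were then recounted, averaged and annotated with HOMER 4.7. The deposited treatment and Input columns are a signal, the mean reads per peak. The deposited enrichment is the mean ratio of ChIP to Input after the authors scaled both to mapped reads. Since the deposited p-value equals 0 for each of the 17435 peaks, it served no purpose here. Distances between a TSS and a peak's centre are those the authors deposited, with positive values downstream, except where the reference is named, and distances of motif matches were computed from the reference.

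The authors describe all scores of the list as means over replicates. The read means are not all whole numbers divided by 3, and the sources used here do not explain their divisors. What each mean was taken over beyond that description is therefore not known. Broad unified peaks give no summit, and lengths depend on the union.

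Members were matched by gene symbol. All 4 receptors, 5 ligands and Hes1 were described with every assigned peak and with peaks lying within 5 kb that are assigned to a neighbour. Of the other 44 pathway genes, the 3 with the highest enrichment within 5 kb and those without an assigned peak were named. Rbpj was among the 3, and Nrarp was named with its group. Gps1 and Lfng fall outside this rule and were chosen once their values had been seen. The members, lists and rules were chosen with earlier results of these data known. Peaks of the whole list were matched to protein-coding genes of GRCm38.p6 by Entrez ID, which the reference held for 99.8% of peaks. Like length means within 10% and like span within 20%. Percentages of the list that were lower count peaks with a smaller value. Motif searches and placements were tested on simulated data. The computation used Python 3.11.15, NumPy 2.4.6, pandas 2.3.3, SciPy 1.17.1, pysam 0.24.0 and matplotlib 3.10.9. Alternatives covered enrichment limits, distances, flanks, ranks and motif settings.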

Additional observations from a re-analysis of the deposited data

How the results depend on the processing

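With enrichment of at least 10, 2 of the 10 genes, Notch3 and Dll4, still had an assigned peak, where 9.55% of protein-coding genes did, and 2 of the 15 peaks passed, where 14.7% of the list did. The median percentile of the members' peaks in the list was 62.0 by enrichment, 68.0 by treatment reads, 36.8 by treatment reads per kb, 63.1 by the ratio of mean reads, 64.3 among peaks within 5 kb of a TSS only and 62.0 with the highest peak of each gene. Ranked by density, the median of the members' peaks was thus in the lower part of the list and not in the upper. A Zeb1 match within 200 bp at the centre was present in 4 peaks, against 13 over the whole peaks, 10 on the forward strand alone and 14 with the 6-base core. In the whole list 54.4% of peaks had a match on the forward strand and 82.1% had the core. The other counts stayed within 1.5 times of their main value. Genes with a peak close to the TSS were 9 within 5 kb, 8 within 1 kb and 10 within 10 kb, and 29 other pathway genes became 26 and 30, where the shares of protein-coding genes were 43.2%, 39.4% and 44.9%. With enrichment of at least 5 there were 12 of the 15 peaks, where 74.0% of the list passed, and with peaks closer than 1 kb merged 14. Leaving out each ChIP library in turn was not run, since it needs values per library. No paired analysis was possible because the list gives 1 mean per peak and no test was made. The authors drew the same number of reads from each sample, and a gene without a peak may have fallen below their limit of 20 treatment reads.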

Other observations

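Peaks over member genes that are assigned to a miRNA gene made up 5 of the 11 peaks given to a neighbour, 3 at Notch1 and 2 at Jag2. A count of Zeb1 peaks by gene name therefore credits the longest peak in these loci to Mir6941, a gene of 59 bp, and not to Jag2. That peak had 261 treatment reads. The share of peaks over all genes that are assigned to a miRNA gene was not computed. Among the other pathway genes, Dner had a peak of 45.7 treatment reads assigned to Mir5126, which was named after its value was seen.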
